A study of Mus musculus with 8 samples.

Results

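RNA of 9 leukocyte adhesion genes was followed in sorted leukaemia stem cells: 7 integrin chains (Itgam, Itgb2, Itgal, Itga4, Itgb1, Itgb7 and Itga5), the selectin ligand Selplg and the adhesion receptor Pecam1. They were taken by gene symbol from a table of 48500 genes, in which each of the 9 has 1 row. The cells were leukaemia stem cells from mouse bone marrow, and the leukaemia of both groups is an acute myeloid one in which HOXA9 and MEIS1 are the drivers. The sort gate for each library took about 10000 cells with GFP and c-Kit on and Gr-1 off. The 4 WT libraries (WT1 to WT4) are Nynrin+/+ and the 4 Nynrin-KO libraries (KO1 to KO4) are Nynrin-/-. Nynrin encodes a protein with a NYN ribonuclease domain, and the comparison asks how its loss alters the transcriptome of these cells. The sources used here do not give age, strain, how the drivers were introduced, the cells in which Nynrin was deleted, or whether the libraries of a group are separate mice. The spread behind each p-value is thus one between libraries and may be technical. Levels are FPKM, in which reads are scaled to transcript length in kilobases and to library size.

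Some features of the whole series bear on the adhesion genes. Depth, recovered from the steps of the FPKM values, ran from 1.83 M reads in KO3 to 33.1 M in WT1. WT3 (1.96 M) and KO3 are the shallowest libraries. Nynrin itself was at 0.008 to 0.286 FPKM in WT and 0.0982 to 0.437 FPKM in Nynrin-KO, so its level does not check the labels. Kit, which encodes the sorted antigen c-Kit, was at 2.62 to 6.4 FPKM in WT and 2.92 to 4.91 FPKM in Nynrin-KO. Ly6g, 1 of the genes behind the Gr-1 antigen that the gate left out, was at 0.707 to 49.3 FPKM in WT and 93.5 to 264 FPKM in Nynrin-KO. Xist, the RNA of X inactivation, was at 15.2 to 26.5 FPKM in WT, 12.7 in KO1 and at most 0.366 in the other Nynrin-KO libraries. The Y-linked Ddx3y was at most 0.111 FPKM in WT, 2.18 in KO1 and 18.2 to 20.7 in the other Nynrin-KO libraries. Sex and genotype therefore cannot be told apart, although none of the 9 genes lies on a sex chromosome. Gm10800, a gene model that resembles satellite repeats, was at 3349 to 6076 FPKM in WT1, KO2 and KO4, the deepest libraries, and at 28612 to 142258 FPKM in the other 5 libraries.

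Integrins are receptors made of an alpha and a beta chain that bind cell surface ligands and matrix, and inside signals switch them from a resting to a binding state. Itgb2 (CD18) is the beta chain of the leukocyte integrins: it pairs with Itgam (CD11b) to form Mac-1, a receptor for complement fragment iC3b and ICAM-1, and with Itgal (CD11a) to form LFA-1. Itgb1 pairs with Itga4 to form VLA-4, which binds VCAM-1 and fibronectin and holds progenitors in marrow, and with Itga5 to form the fibronectin receptor VLA-5. Itgb7 pairs with Itga4 to bind MAdCAM-1. Selplg encodes PSGL-1, the main leukocyte ligand of P-selectin, and Pecam1 (CD31) binds itself on neighbouring cells. In myeloid differentiation Mac-1 is known as a marker of granulocytes and monocytes, and the transcription factor PU.1 is known to act at the Itgam promoter.

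The 250 bases before the start site are shown for the alpha chain genes Itgam, whose RNA differed between the groups, and Itga4, whose RNA did not pass the test. Both come from RefSeq (GRCm38.p6, the assembly also called mm10) and read 5′ to 3′ on the gene's strand, which is the plus strand for both. Itgam lies at chr7:128062390-128062639 and Itga4 at chr2:79255176-79255425. Capitals mark the PU.1 core GAGGAA on either strand, which reads TTCCTC where it lies on the opposite strand.
Itgam: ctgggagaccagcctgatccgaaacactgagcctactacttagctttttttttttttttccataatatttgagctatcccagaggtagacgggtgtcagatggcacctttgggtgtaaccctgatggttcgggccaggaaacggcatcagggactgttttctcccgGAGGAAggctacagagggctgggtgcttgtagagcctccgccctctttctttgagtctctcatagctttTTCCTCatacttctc
Itga4: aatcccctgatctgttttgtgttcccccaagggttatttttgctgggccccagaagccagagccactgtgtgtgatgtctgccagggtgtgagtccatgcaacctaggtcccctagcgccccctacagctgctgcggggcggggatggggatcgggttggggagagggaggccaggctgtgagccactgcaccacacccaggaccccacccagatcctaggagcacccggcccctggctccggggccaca
The Itgam stretch holds the core at 2 places, starting 84 bases and 15 bases before the start site, and the Itga4 stretch holds none. Of 32851 promoter stretches of that length, 23.3% hold at least 1 GAGGAA on either strand and 3.54% hold at least 2. The RefSeq table held promoters for 5 of the 9 genes (Itgam, Itga4, Itgb1, Itgb7 and Itga5). Of these 3 hold the core: Itgam and also Itgb1 and Itga5, 2 genes whose RNA did not pass the test. Itgam is the only called gene of the 5, since the RefSeq table held none for Itgb2, Itgal and Pecam1. The 5 stretches thus cannot show whether the core goes with the calls. The RUNX core TGTGGT was in 1 of those 5 (14% of all stretches) and the SP1 core GGGCGG in 4 of 5 (32.7% of all). No 2 of the 3 motifs overlap in these stretches. A match is a string of letters and not a measured site.

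Of the 9 genes, 4 passed the test of Nynrin-KO against WT: Itgb2, Itgam and Itgal rose and Pecam1 fell, while Itga4, Itgb1, Itgb7, Itga5 and Selplg did not pass. The test was limma on log2(FPKM + 1), with p-values adjusted by Benjamini-Hochberg over the 12524 genes tested and a threshold of 0.05. Across those genes 27.9% were called, 14% higher and 13.8% lower, so the 3 higher and 1 lower of 9 are to be read against a transcriptome in which such calls are common. The median log2 difference was 0.25 over the 9 genes and -0.03 over all genes tested. The lowest value of any of the 9 in any library was 3.97 FPKM, so the filter on low values (at least 1 FPKM in at least 4 libraries) did not select among them.

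**Figure D1:**
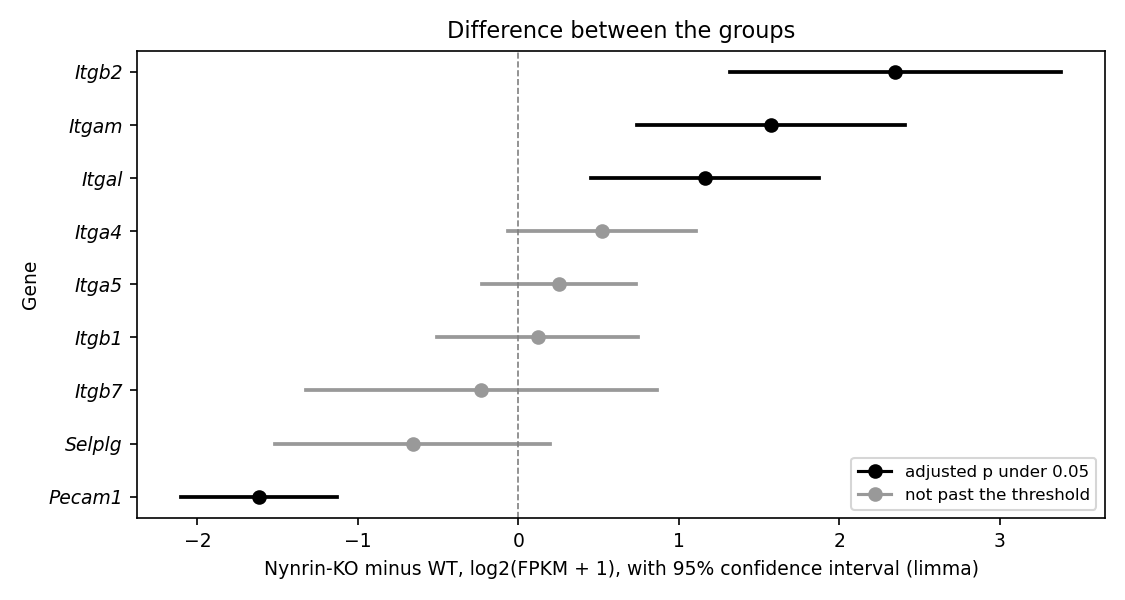
Difference between Nynrin-KO and WT for each of the 9 genes (vertical axis) on the log2(FPKM + 1) scale (horizontal axis), with limma's 95% confidence interval, 4 libraries a group. Intervals in black belong to the 4 genes past the adjusted threshold, from 2.35 for Itgb2 to -1.62 for Pecam1, and intervals in grey to the 5 that did not pass.

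The leukocyte integrin chains of the beta-2 family were higher in Nynrin-KO. Itgb2 (ENSMUSG00000000290, mm10 chromosome 10, 77530252 to 77565708, plus strand) stood at 22.1, 79.6, 69 and 112 FPKM in WT1 to WT4 and at 323, 319, 225 and 423 FPKM in KO1 to KO4. Every Nynrin-KO library lay above every WT library, and WT1 was well below the other WT libraries. The means were 70.7 ± 37.3 and 323 ± 80.8 FPKM (SD, n = 4 each), a ratio of 4.56 and a log2 difference of 2.35 (SE 0.46, limma adjusted p = 0.00677). Itgb2 ranked 716th in mean level among the 12524 genes in WT and 141st in Nynrin-KO.

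Itgam (ENSMUSG00000030786, mm10 chromosome 7, 128062640 to 128118491, plus strand) followed the same order of groups. Its levels were 6.22, 16.9, 15.2 and 25.6 FPKM in WT1 to WT4 and 54.9, 41.1, 34.5 and 51.5 FPKM in KO1 to KO4, again without overlap and with WT1 lowest. WT averaged 16 ± 7.96 and Nynrin-KO 45.5 ± 9.39 FPKM (SD, n = 4 each), a ratio of 2.84 and a difference of 1.57 on the log2 scale (SE 0.37, limma adjusted p = 0.0141). Gm49368, a gene model annotated over Itgam on the same strand, was at most 0.318 FPKM.

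Itgal (ENSMUSG00000030830, mm10 chromosome 7, 127296260 to 127335138, plus strand) rose by less. It was at 14.5, 8.33, 10.1 and 13.4 FPKM in WT1 to WT4 and at 18.5, 39.8, 17.8 and 38.3 FPKM in KO1 to KO4. The groups did not overlap, but the Nynrin-KO libraries fell into a lower pair, KO1 and KO3, and a higher pair, KO2 and KO4, which are also the libraries low in Gm10800. The means were 11.6 ± 2.86 and 28.6 ± 12.1 FPKM (SD, n = 4 each), with a log2 difference of 1.17 (SE 0.31, limma adjusted p = 0.024). Groups that do not overlap were seen for 31.7% of the genes tested, 16.7% higher and 15% lower in Nynrin-KO.

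**Figure D2:**
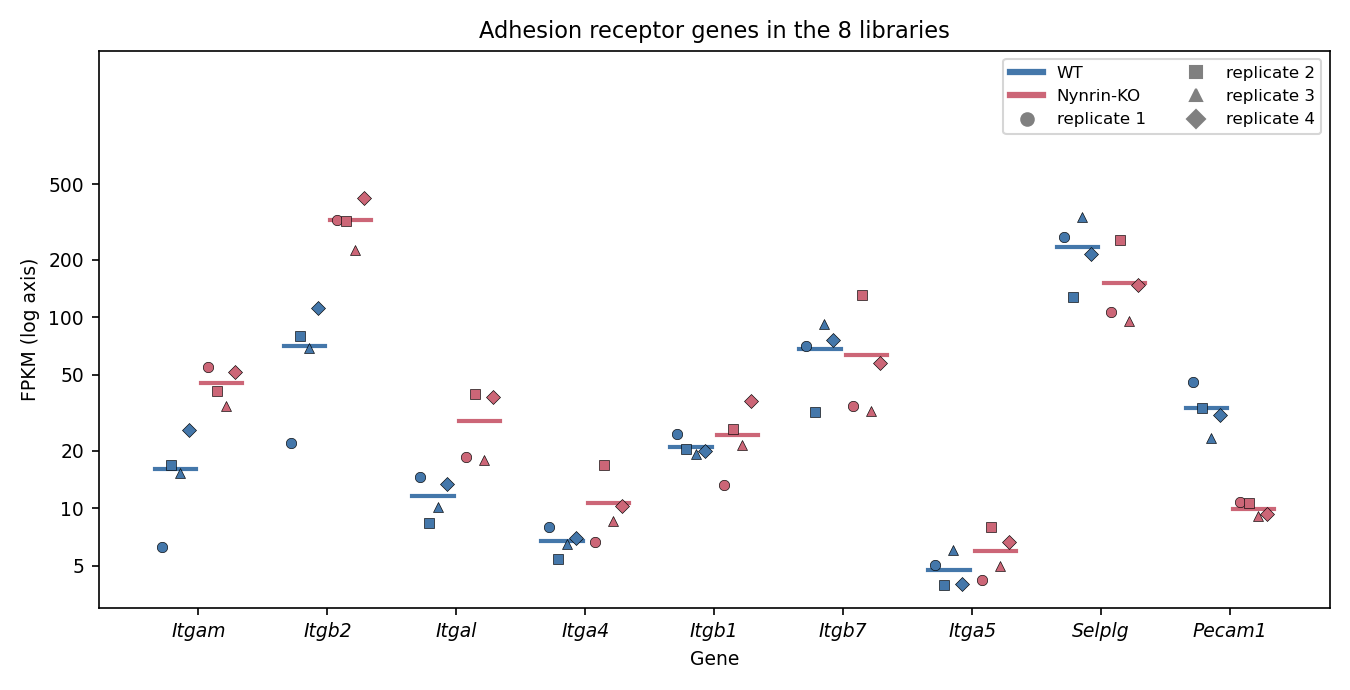
FPKM (vertical axis, log scale) of each of the 9 genes (horizontal axis) in the 8 libraries. Points are libraries, with a shape for each replicate number, and bars are group means. The Nynrin-KO points lie above all WT points for Itgam, Itgb2 and Itgal, below them for Pecam1, and overlap with them for the other 5 genes.

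Itgal and Itgam lie in one stretch of chromosome 7 with the related alpha chain genes Itgax (CD11c) and Itgad (CD11d), which also pair with Itgb2. Itgax (128129547 to 128150657) was at 0.419 to 1.39 FPKM in WT and 1.76 to 5.61 FPKM in Nynrin-KO, without overlap, but did not pass (log2 difference 0.89, limma adjusted p = 0.0612). Itgad (128154376 to 128223816) was at 0.0368 to 0.248 FPKM in WT and 0.328 to 1.87 FPKM in Nynrin-KO and did not reach the filter on low values.

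Listed genes of the neutrophil lineage, whose mature cells carry much Mac-1, were also higher in Nynrin-KO. Of 17 listed neutrophil genes, all in the table and none at 0 in every library, 11 were called higher and 0 lower (limma, 15 higher and 0 lower at an unadjusted p under 0.05, and 9 higher and 0 lower by voom on recovered reads). Their summed level was 3072 FPKM in WT1, between 56143 and 106048 in the other WT libraries, and between 126780 and 286756 in Nynrin-KO. The part of neutrophil RNA in the integrin differences was not tested, and the covariate fit given further on cannot measure it. S100a8, the most abundant of the 17 genes, was at 1288 to 45965 FPKM in WT and 58606 to 128921 FPKM in Nynrin-KO. It was not called (limma adjusted p = 0.0975). Most of the sum in each library came from S100a8, S100a9, Ngp and Camp, none of which was called. WT1, with the lowest sum, also had the lowest Itgam and Itgb2, and WT4, with the highest sum in WT, had the highest of both in WT. Itgal did not follow that order: in WT it was highest in WT1. Within Nynrin-KO the sum and Itgam were both highest in KO1, and the sum was lowest in KO2. Itgb2 was highest in KO4, and both Itgb2 and Itgam were lowest in KO3. Of 18 monocyte and macrophage genes, which mark other cells with beta-2 integrins, 7 were called higher and 0 lower by limma. Counts were 11 and 0 at an unadjusted p under 0.05, and 9 and 0 by voom. The 7 were Fcgr1, C1qa, C1qb, C1qc, Vcam1, Apoe and Mertk, and Mertk passed the filter on low values through Nynrin-KO alone. The monocyte genes Csf1r, Ly6c2, Ccr2 and Cx3cr1 were among the 11 not called. The sums were 9736 to 23405 FPKM in WT and 17978 to 34041 FPKM in Nynrin-KO. Most of each sum was Lyz2, at 8391 to 20831 FPKM in WT and 16060 to 29691 FPKM in Nynrin-KO, which was not called. The neutrophil and monocyte counts are to be read against all genes tested. There limma called 14% higher and 13.8% lower, and voom called 2357 of 12510 higher and 2334 lower. The shares of all genes at an unadjusted p under 0.05 are not given, and they are at least those limma shares. Lymphoid cells carry LFA-1, and 9 B cell genes summed to 22.2 to 28 FPKM in WT and 24.5 to 40.2 FPKM in Nynrin-KO, more than Itgal in every WT library. Most of that sum in WT was Cd79b, a chain of the B cell receptor, at 17.4 to 27.4 FPKM in WT and 11.5 to 21.7 FPKM in Nynrin-KO, which was not called. The 10 T cell genes summed to 2.62 to 5.93 FPKM in WT and 5.55 to 16.7 FPKM in Nynrin-KO, and 8 NK cell genes to 3.09 to 8.78 and 5.84 to 29 FPKM. Cd79a of the B cell list and Gzma of the NK cell list were called higher (limma adjusted p = 0.00444 and 0.0187). Cd79a passed the filter on low values through Nynrin-KO alone, while Gzma also reached 1.535 FPKM in WT3. The part of lymphoid RNA in the level of Itgal was not tested. In bulk RNA a change in the number of cells of a type and a change in RNA per cell cannot be told apart.

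**Figure D3:**
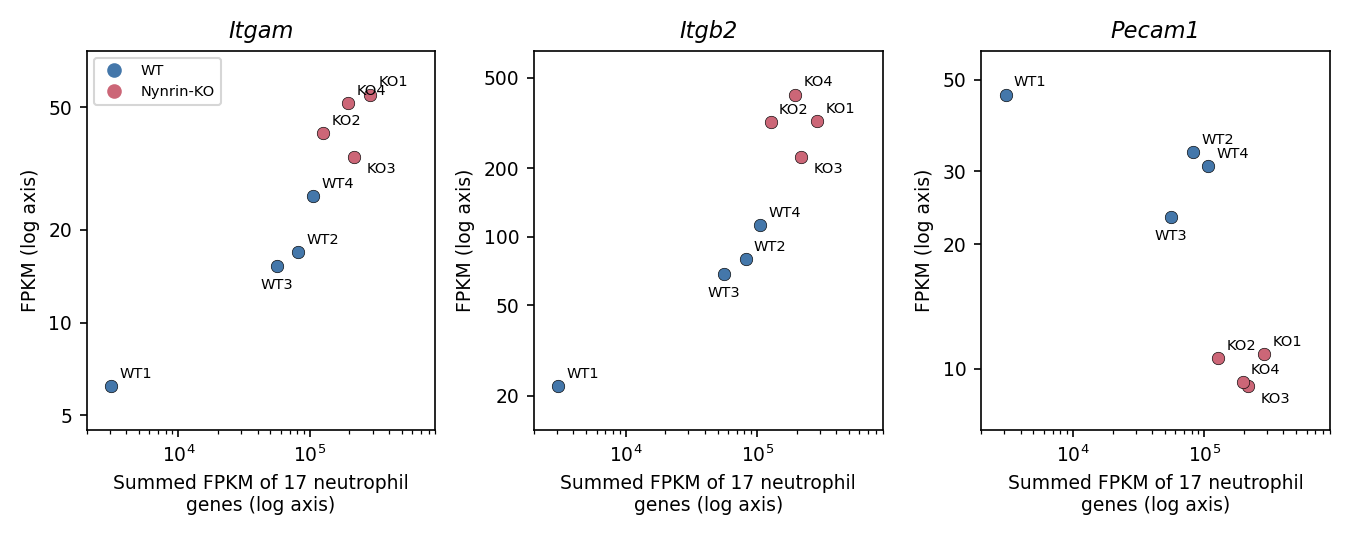
Summed FPKM of the 17 neutrophil genes (horizontal axes, log scale) and FPKM of Itgam, Itgb2 and Pecam1 (vertical axes, log scale), 1 point for each library. WT1 has the lowest neutrophil sum (3072 FPKM) and the lowest Itgam and Itgb2, and Nynrin-KO libraries lie at the high end of the sum in each panel.

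With the mean log2 level of the neutrophil genes as a covariate, none of the 4 called adhesion genes passed. That fit calls 0.0639% of all genes. The summed level of the 17 neutrophil genes did not overlap between the groups. The fit can thus hardly part neutrophil level from group, and the lost calls do not measure a share of neutrophil RNA. The log2 difference in that fit was 0.998 for Itgb2 (limma adjusted p = 0.179), 0.46 for Itgam (0.376), 1.49 for Itgal (0.157) and -1.25 for Pecam1 (0.0907). At an unadjusted p under 0.05, 2 of the 9 genes were higher and 1 lower (limma). No share over all genes is given for that count, so it is a description only. Without WT1 the difference was 1.88 for Itgb2 and 1.21 for Itgam (limma adjusted p = 0.00477 and 0.0151). Within the 5 libraries high in Gm10800 (WT2, WT3, WT4, KO1 and KO3), where limma called 8.31% of genes, Itgb2 passed with 1.65 (adjusted p = 0.0276), while Itgam with 1.17 and Itgal with 0.74 did not (adjusted p = 0.0745 and 0.123). With the shallowest pair, WT3 and KO3, left out, where 35.1% of genes were called, and with WT1 and KO1 left out, where 13.9% were, the same 4 of the 9 genes passed. Itgal did not pass when KO2, KO4 or WT2 was left out (limma adjusted p = 0.0633, 0.0639 and 0.0637), with TPM scaling (0.103) and without the filter on low values (0.0803).

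Itgb2 held a larger share of the beta chain RNA in every Nynrin-KO library than in any WT library. Itgb2 made up 18.8%, 60.3%, 38.1% and 53.9% of the summed FPKM of Itgb1, Itgb2 and Itgb7 in WT1 to WT4, and 87.1%, 67.1%, 80.7% and 81.9% in KO1 to KO4. The share of Itgb7 averaged 43.1% ± 16 for WT and 14.9% ± 8.43 for Nynrin-KO (SD, n = 4 each), with WT2 (24.3%) below KO2 (27.4%). The share of Itgb1 was 9.61% to 20.8% in WT and 3.58% to 7.71% in Nynrin-KO, without overlap, although its own level overlapped between the groups. Of the 4 alpha chains, Itgam made up 39.7% ± 14.9 in WT and 51.2% ± 10.9 in Nynrin-KO, and Itgal 30.1% ± 8.69 and 30.6% ± 7.43 (SD, n = 4 each), with groups that overlap. The share of Itga4 was 14% to 23.6% in WT and 7.86% to 16% in Nynrin-KO, which overlap. That of Itga5 was 7.96% to 15.8% in WT and 4.99% to 7.53% in Nynrin-KO, without overlap. These shares are parts of sums that Itgb2, Itgam and Itgal lead in Nynrin-KO. They are descriptions and were not tested.

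**Figure D4:**
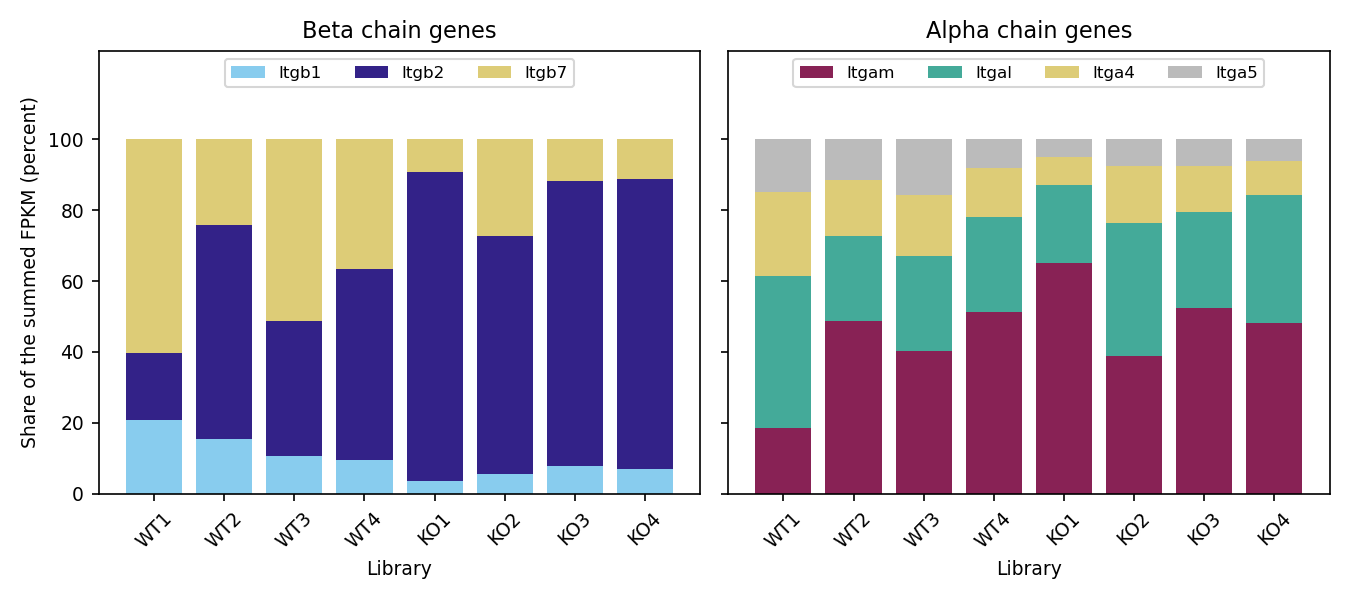
Share in percent of the summed FPKM (vertical axes) of the 3 beta chain genes and of the 4 alpha chain genes in each library (horizontal axes). Itgb2 takes 18.8% to 60.3% of the beta chain sum in WT and 67.1% to 87.1% in Nynrin-KO.

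Itgb2 stood above the combined level of its alpha partners. Divided by the summed FPKM of Itgam, Itgal, Itgax and Itgad, it came to 1.01, 3.09, 2.55 and 2.77 in WT1 to WT4 and to 4.23, 3.83, 4.03 and 4.41 in KO1 to KO4. The sum of the 4 alpha chains was 28.8 ± 8.14 FPKM for WT and 77.9 ± 16.7 FPKM for Nynrin-KO (SD, n = 4 each). Itgb2 per alpha chain was thus higher in every Nynrin-KO library, a description that was not tested. Itgb1 over the sum of Itga4 and Itga5 came to 1.85 ± 0.26 for WT and 1.5 ± 0.48 for Nynrin-KO (SD, n = 4 each), and the groups overlap.

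Of 5 ratios between paired or alternative chains, none passed after adjustment. The log2 ratio of Itgam to Itgb2 was -1.68, -2.17, -2.11 and -2.09 in WT1 to WT4 and -2.53, -2.93, -2.67 and -3.01 in KO1 to KO4. It was lower in Nynrin-KO by 0.78 on the log2 scale, with no overlap (exact two-sided permutation p = 0.0286, the smallest that 4 against 4 libraries allow, and 0.143 after adjustment over the 5 ratios). Itgal to Itgb2 went from -2.33 ± 1.19 to -3.51 ± 0.45 (SD, n = 4 each, exact permutation p = 0.0857, adjusted 0.214). Itgam to Itgal (exact permutation p = 0.571), Itga4 to Itga5 (0.257) and Itgb7 to Itgb1 (0.543) differed by 0.41, 0.27 and -0.35 on the log2 scale. With 5 ratios the smallest adjusted p that 1 ratio alone can reach is above the threshold.

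The chains of VLA-4, VLA-5 and the beta-7 integrin did not pass the test. Itga4 (ENSMUSG00000027009, mm10 chromosome 2, 79255426 to 79333123, plus strand) was at 7.97, 5.44, 6.52 and 7.01 FPKM in WT1 to WT4 and at 6.62, 16.9, 8.57 and 10.3 FPKM in KO1 to KO4. The groups overlapped only through KO1, and the highest level was in KO2. The log2 difference was 0.52 with a 95% interval from -0.06 to 1.11 (limma adjusted p = 0.166). Cerkl, annotated over Itga4 on the opposite strand, was at 0.418 to 2.31 FPKM, and the sources used here do not say whether counting used strand, so reads of the overlap cannot be assigned.

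Itgb1 (ENSMUSG00000025809, mm10 chromosome 8, 128685654 to 128733200, plus strand) had the lowest coefficient of variation of the 9 genes in WT, 11%, with levels of 24.4, 20.4, 19.2 and 20 FPKM. It spread more widely in Nynrin-KO, at 13.3, 26.1, 21.5 and 36.2 FPKM in KO1 to KO4, on both sides of the WT range. The log2 difference was 0.12 with a 95% interval from -0.51 to 0.75 (limma adjusted p = 0.779). Itga5 (ENSMUSG00000000555, mm10 chromosome 15, 103344286 to 103366763, minus strand) was the lowest of the 9, at 3.97 to 6.002 FPKM in WT and 4.2 to 7.94 FPKM in Nynrin-KO. Its log2 difference was 0.25 with a 95% interval from -0.23 to 0.73 (limma adjusted p = 0.409).

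Itgb7 (ENSMUSG00000001281, mm10 chromosome 15, 102215995 to 102231944, minus strand) had the highest coefficient of variation of the 9 genes in Nynrin-KO. It was at 70.9, 32, 92.9 and 76.1 FPKM in WT1 to WT4 and at 34.4, 130, 32.4 and 57.5 FPKM in KO1 to KO4. KO2 held the highest level of all, WT2, KO1 and KO3 stood close together at the bottom, and the coefficient of variation was 72.1%, against 37.9% in WT. The log2 difference of -0.23 had a 95% interval from -1.32 to 0.86 (limma adjusted p = 0.759), the widest interval of the 5 genes that did not pass.

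Selplg (ENSMUSG00000048163, mm10 chromosome 5, 113818536 to 113832644, minus strand) was the most abundant of the 9 in WT. It was at 262, 128, 336 and 215 FPKM in WT1 to WT4 and at 106, 254, 95.6 and 149 FPKM in KO1 to KO4. As for Itgb7, WT2, KO1 and KO3 were the lowest libraries and WT3 was the highest in WT, with KO2 the highest in Nynrin-KO. The means were 235 ± 87.2 and 151 ± 72.4 FPKM (SD, n = 4 each), with a log2 difference of -0.66 and a 95% interval from -1.52 to 0.2 (limma adjusted p = 0.228).

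Pecam1 (ENSMUSG00000020717, mm10 chromosome 11, 106654217 to 106750628, minus strand) was the gene of the 9 that fell. It was at 46, 33.4, 23.2 and 30.8 FPKM in WT1 to WT4 and at 10.8, 10.6, 9.07 and 9.27 FPKM in KO1 to KO4. The 4 Nynrin-KO libraries lay within a narrow range, with a coefficient of variation of 9.02%, below every WT library. The means were 33.4 ± 9.48 and 9.94 ± 0.90 FPKM (SD, n = 4 each), a ratio of 0.298 and a log2 difference of -1.62 (SE 0.21, limma adjusted p = 0.00194). The difference was -1.45 within the 5 libraries high in Gm10800 (limma adjusted p = 0.0242).

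Endothelial cells and platelets also carry CD31, and their defining genes were low in these libraries. The 12 endothelial genes summed to 1.77 to 5.83 FPKM in WT and 5.78 to 10.2 FPKM in Nynrin-KO, with Cdh5, the cadherin of endothelial junctions, at no more than 0.475 FPKM. The 9 megakaryocyte and platelet genes in the table summed to 0.967 to 5.56 FPKM in WT and 4.78 to 10.4 FPKM in Nynrin-KO. No gene of either list was at 0 in all libraries. Flt1 (a VEGF receptor) was at 0.504 to 0.968 FPKM in WT and 1.36 to 5.85 FPKM in Nynrin-KO, and Pf4 (a platelet chemokine) at most at 0.493 FPKM in WT and at 1.08 to 1.86 FPKM in Nynrin-KO. Both passed the filter on low values through Nynrin-KO alone. Each sum was below the level of Pecam1 in every library but KO3. There the endothelial sum was 10.2 and the platelet sum 10.4 FPKM against 9.07 FPKM of Pecam1. KO3 is the shallowest library, and Cdh5 and Pf4 each rested on 2 reads in it. The part of these cells in the level of Pecam1 was not tested.

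Selplg led the 9 genes by level in WT and Itgb2 in Nynrin-KO. In WT the order by mean FPKM was Selplg, Itgb2, Itgb7, Pecam1, Itgb1, Itgam, Itgal, Itga4 and Itga5. There the ranges of Selplg and Itgb2 did not meet, nor did those of Itgal and Itga4, while every other pair of neighbours overlapped. In Nynrin-KO it was Itgb2, Selplg, Itgb7, Itgam, Itgal, Itgb1, Itga4, Pecam1 and Itga5, and only Pecam1 and Itga5 were apart among neighbours. FPKM is per length of the longest transcript, from 2314 bases for Selplg to 9767 for Itga4, so levels of genes that mostly make a shorter transcript are understated.

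Among 109 other gene symbols of adhesion, in 7 lists, 104 were in the table and 70 passed the filter on low values. Of these 19 rose and 3 fell, where 14% of all genes tested were called higher and 13.8% lower. The median log2 difference was 0.38 against -0.03 over all genes tested. The limma counts of each list at the adjusted threshold are to be read against the same 14% and 13.8%, and the lists are short. Those by voom are to be read against 2357 genes higher and 2334 lower of 12510 tested. No share over all genes is given for the counts at an unadjusted p under 0.05. That share is at least the one at the adjusted threshold of the same fit. Since genes can pass the filter through 1 group alone, the counts of the lists are not of all listed genes. The number that rose was 12 without KO4, 5 within the 5 libraries high in Gm10800 and 0 with the neutrophil covariate, where 13 had an unadjusted p under 0.05 (limma). In the list of integrin activators and adaptors 11 of 21 rose and 0 fell (limma, 13 and 0 at an unadjusted p under 0.05, 12 and 0 by voom). The list mixes activators with adaptors and partners, so its count does not measure integrin activation. The genes that rose included Fgr, a Src family kinase of myeloid cells, from 8.5 ± 4.91 to 56.4 ± 17 FPKM (log2 difference 2.70), and Fyb, an adaptor of integrin activation, from 15.3 ± 5.05 to 80.1 ± 32.5 FPKM (2.27). Cytip, a partner of cytohesin, rose by 1.53 and Apbb1ip (RIAM), which links RAP1 to talin, rose by 1.19 on the log2 scale (SD, n = 4 each, limma adjusted p = 0.00194 to 0.00278 for the 4 genes). The core activators of the beta tail did not pass: Tln1 (talin) differed by 0.02 and Fermt3 (kindlin-3) by -0.14.

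Other integrin chains moved in both directions. Of 8 tested, Itgb2l, a beta chain related to Itgb2, rose from 19.8 ± 15.4 to 102 ± 44.5 FPKM (log2 difference 2.71, limma adjusted p = 0.0246). Itga1, the collagen-binding alpha-1 chain, fell from 19.2 ± 4.04 to 4.44 ± 1.43 FPKM (-1.91, limma adjusted p = 0.0017), and Itga6, a laminin-binding chain, fell from 3.06 ± 0.52 to 1.46 ± 0.57 FPKM (-0.74, limma adjusted p = 0.0293, SD, n = 4 each). All 12 untested chains of the list were left out by the filter on low values.

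Among ligands 3 of 8 rose and 0 fell (limma, 4 and 0 at an unadjusted p under 0.05, 4 and 0 by voom). Vcam1, the ligand of VLA-4 and also a macrophage gene, was at 0.946, 4.01, 4.11 and 4.37 FPKM in WT1 to WT4 and at 48.3, 32.4, 54.6 and 121 FPKM in KO1 to KO4 (log2 difference 3.84, limma adjusted p = 0.00153). Icam1, a ligand of Mac-1 and LFA-1, rose from 3.995 ± 0.93 to 8.59 ± 2.39 FPKM (SD, n = 4 each, limma adjusted p = 0.0164). Cd38, which binds CD31, was at 0.277, 0.518 and 0.586 FPKM in WT1, WT2 and WT4, was listed at 0 in WT3, and was at 1.17 to 2.87 FPKM in Nynrin-KO (limma adjusted p = 0.013). It passed the filter on low values through Nynrin-KO alone. Of 9 inhibitors of integrin activation 2 rose and 0 fell (limma, 5 and 0 at an unadjusted p under 0.05, 6 and 0 by voom). They were the RAP1 inhibitor Rap1gap2 and the adaptor Dok2, by 1.18 and 1.79 on the log2 scale (limma adjusted p = 0.00864 and 0.0159).

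Among selectins and ligand carriers, Cd44, a carrier of E-selectin ligands, rose from 48.6 ± 6.72 to 84.8 ± 14 FPKM (SD, n = 4 each, limma adjusted p = 0.0169). Cd34, a sialomucin of progenitors, fell from 86.4 ± 44.3 to 6.26 ± 0.76 FPKM (log2 difference -3.48, limma adjusted p = 0.000929). The genes that build the sugars of selectin ligands gave 0 calls of 15 by limma, with 3 higher and 3 lower at an unadjusted p under 0.05, and 2 higher and 1 lower by voom. The 2 with the smallest p were B4galt5, a galactosyltransferase, and C1galt1, the core 1 O-glycan synthase. Their log2 differences were 0.64 and 0.79 (limma adjusted p = 0.0556 and 0.0565). C1galt1 was listed at 0 in WT3. Both genes passed the filter on low values through Nynrin-KO alone, since they reached at most 0.744 and 0.997 FPKM in WT. Of 3 tested genes of PECAM1 signalling and junctions none was called by limma or voom, and none had an unadjusted p under 0.05. Ptpn11, the phosphatase SHP-2 that binds the tail of CD31, differed by -0.14 on the log2 scale. Cd99l2, a relative of CD99 listed at 0 in KO3, differed by -0.49 and passed the filter on low values through WT alone.

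**Figure D5:**
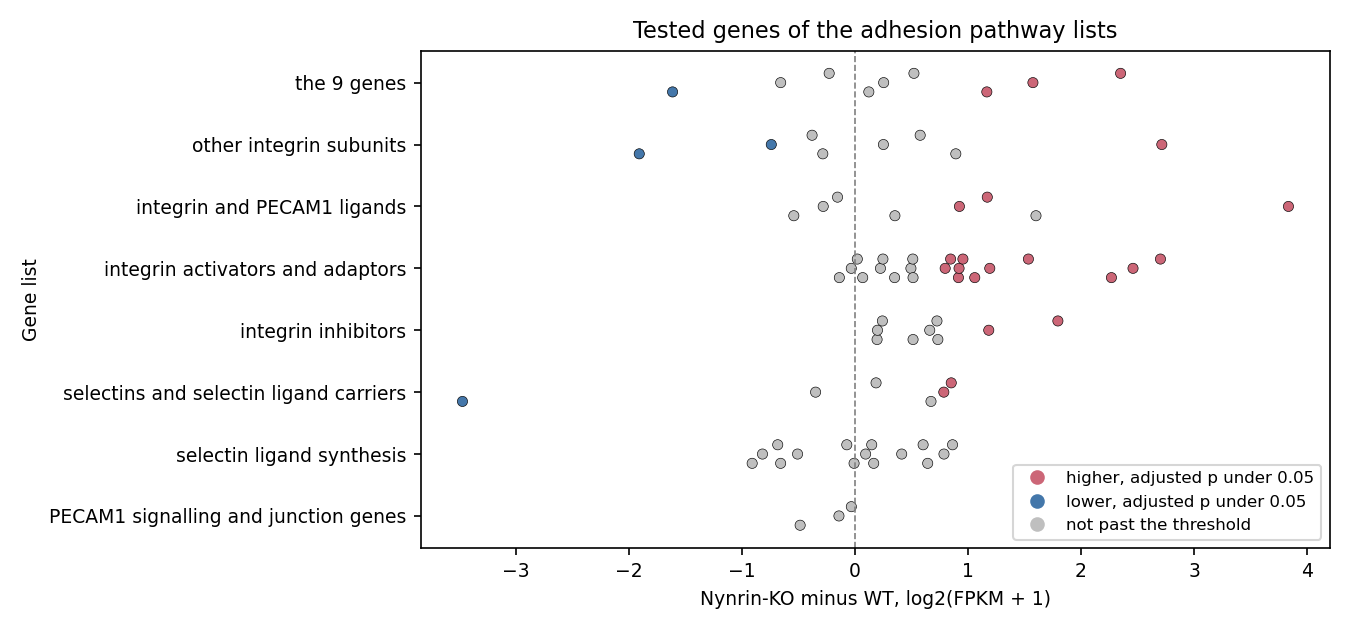
Nynrin-KO minus WT on the log2(FPKM + 1) scale (horizontal axis) for each tested gene of the 9 and of the 7 pathway lists (vertical axis), 1 point for each gene. Points past the adjusted threshold are coloured by direction, with 11 activators and adaptors to the right of 0 and Cd34 at -3.48 on the left.

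For 4 of the genes the closest patterns over the 8 libraries were sought among 5062 named genes with a mean of at least 5 FPKM. The measure was the root mean square difference of log2(FPKM + 1) values after centring each gene on its own mean. Nearest to Itgam were Rflnb (0.17), Siglece (0.18), which encodes an inhibitory sialic acid receptor of myeloid cells, and Tmem154 (0.19). Nearest to Itgb2 were Mcemp1 (0.19), Pilrb1 (0.22) and the adhesion molecule gene Ceacam1 (0.22). Nearest to Itga4 were Prex1 (0.10), Arl4d (0.12) and Sec24b (0.13), and nearest to Pecam1 were the folate carrier gene Slc19a1 (0.11), Atpif1 (0.12) and Ecd (0.13). These distances describe likeness over libraries that share the group difference and depth.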

How the data were processed

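RNA-seq libraries made with the Smart-Seq V4 kit (per the labels' protocols) were deposited by the authors as 1 table of FPKM values for 48500 genes in 4 WT and 4 Nynrin-KO libraries, grouped by title. The unit is not named in the header. It was taken from the values, since FPKM times the longest transcript length (GENCODE M21) gave nearly equal column sums. Per the submitters' processing notes the build was mm10, and Bowtie 0.12.9, Cufflinks 2.1.1 and HTSeq were named without a role. Reads were recovered from the FPKM steps, with 99.4% to 99.5% of the values checked whole within 0.1 read. Counts of reads cover counting error only, since PCR copies are not independent molecules.

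A gene was tested if 4 or more libraries reached 1 FPKM. The test was that of limma 3.58.1 (run in R 4.3.3) on log2(FPKM + 1), with trend and robust moderation and group as the only term, checked on simulated data. Ratios used exact permutation tests (Python 3.11.15). Coordinates are from GENCODE M21, and promoters from RefSeq. The 9 genes, the lists and the motifs were chosen with earlier results of these data known. Named genes are the 9, the checks, up to 4 called genes of each list with the smallest p (at most 2 where none was called) and the nearest patterns of 4 genes. Itgax, Itgad, Gm49368, Cerkl, Tln1, Fermt3, Cdh5, Flt1, Pf4, Cd79a, Cd79b, Gzma, Xist and Ddx3y fall outside that rule and were chosen after values were seen. The same holds for S100a9, Ngp, Camp, Fcgr1, C1qa, C1qb, C1qc, Apoe, Mertk, Csf1r, Ly6c2, Ccr2, Cx3cr1 and Lyz2. A gene that the rule names is not reported here. Alternatives covered pseudocount, filter, scaling, moderation, weights, replicate block, voom, libraries left out, a covariate and the threshold. Lists were matched by gene symbol, and Cd99, Gfus, Gp1bb, Icam4, Ilk and Papst1 were not analysed here under those symbols.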

Additional observations from a re-analysis of the deposited data

Results flagged for a closer look

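In WT, WT1 stood apart for 2 of the values reported, where its gap to the nearest library was larger than expected for 4 libraries. Vcam1 was at 0.946 FPKM in WT1 against 4.01 to 4.37 FPKM in WT2 to WT4. The log2 ratio of Itgam to Itgb2 was -1.68 in WT1 against -2.17 to -2.09 in WT2 to WT4. WT1 is also the deepest library and the one with the lowest summed level of neutrophil genes, and the part of either in these values was not tested. Such gaps were sought in 66 groups of 4 values, and chance alone marks about 1 in 20.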

How the results depend on the processing

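Over 24 alternatives for each gene, the 4 called genes kept their direction, with 83 of 96 values on the same side of the threshold and 13 no longer past it, and all 120 values of the other 5 genes stayed short of it. The log2 difference ranged from 0.998 to 2.81 for Itgb2, 0.46 to 1.84 for Itgam, 0.74 to 1.49 for Itgal and -1.77 to -1.25 for Pecam1. The number of the 9 genes that rose was 1 within the 5 libraries high in Gm10800, 1 at a threshold of 0.01 and 0 with the neutrophil covariate, where 0 fell. Leaving out each library in turn gave 2 to 3 that rose and 1 that fell, 12 to 25 pathway genes that rose and 2 to 3 that fell, and 1020 to 1875 genes higher and 1204 to 1852 lower over all genes. The lowest of these counts of genes that rose came without KO4 (12 and 1020), and the count over all genes was also low without KO2 (1048) and WT1 (1150). The number of pathway genes that rose, 19 as reported, was 10 with TPM scaling or without WT1 and KO1, 30 with array weights, 29 with voom, 9 without the filter, 8 at a threshold of 0.01, 5 in the 5 libraries and 0 with the covariate, where 1 fell. Over all genes (1754 higher and 1734 lower), 1000 were higher with TPM scaling, 765 higher and 814 lower without WT1 and KO1, 211 and 714 in the 5 libraries, 4 and 4 with the covariate, 790 and 908 without the filter, and 671 and 783 at 0.01. With array weights 2472 were higher and 2448 lower, and with voom 2357 and 2334. The cause of these moves was not tested, except that a stricter threshold gives fewer calls by construction. No ratio passed under any alternative tried. With 1 library left out, the smallest exact p that a ratio can reach is above the threshold even before adjustment. Those alternatives therefore could not have given a pass. Same-numbered libraries deviated together with correlations of -0.21, -0.39, 0.33 and 0.0076, and 2 of 8 libraries correlated best with their own number, so the numbers do not pair them. With the replicate number as a block the counts were 3 and 1 of the 9 genes, and 1357 higher and 1481 lower over all genes. At the depth of KO3, 3 reads of a 1 kb transcript are 1.64 FPKM, and Itga5 rested on 40 reads there.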
